A study of Mus musculus with 6 samples.

Results

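The 9 genes described here encode the enzymes that write, keep, oxidise and remove methyl groups on cytosine in DNA, together with a protein that reads the mark. They were chosen by name, for their roles, with earlier results of these data known: Dnmt1, Dnmt3a, Dnmt3b, Uhrf1, Tet1, Tet2, Tet3, Mbd2 and Tdg, 9 of the 57186 genes in the deposited table. All 9 passed the filter on low counts. Tet1 passed it through the Y-Scr libraries and Y-KO replicate 3.

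RNA was sequenced from CD45-negative cells sorted out of MB49 tumours, where CD45 is the surface antigen common to leukocytes and MB49 is a mouse bladder carcinoma line of male origin. The tested tumours grew from MB49 cells whose Y chromosome had been targeted with CRISPR (genotype CRISPR Y-KO, 3 libraries), and the control tumours from MB49 cells given the scrambled CRISPR control (CRISPR Y-Scr, 3 libraries). Both were grown subcutaneously in C57Bl/6J mice, and tumours were taken at 500 mm3. Age and sex of the mice, and whether each line was a single clone, are not given in the sources used here. The hosts had their own immune cells, and host fibroblasts and vessel cells are also CD45-negative. The labels do not state that replicates came from separate animals, so a p-value here covers the spread among libraries alone, and that spread may be technical.

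Dnmt1 copies methylation onto the new strand after replication, guided by Uhrf1, which recognises CpG sites methylated on the old strand. Dnmt3a and Dnmt3b methylate DNA that carried no mark. Tet1, Tet2 and Tet3 oxidise methylcytosine, and the glycosylase Tdg cuts out the oxidised base so that repair restores plain cytosine. Mbd2 binds methylated CpG and recruits a repressive complex. In tumours the maintenance pair is known to follow proliferation, and Dnmt3a and Tet2 are best known as genes mutated in blood cancers.

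Library totals ran from 42040955 to 52951031 counts. The Y-linked helicase gene Ddx3y, a check of the labels, stood at 22.7, 16.8 and 8.79 CPM in Y-KO and at 128, 147 and 162 CPM in Y-Scr. CPM is the count scaled by library size. Y-KO replicate 3 stood apart: the SD over genes of its log2 CPM difference was 0.509 and 0.514 from Y-KO replicates 1 and 2, against 0.231 between those replicates and 0.158 to 0.215 among the Y-Scr libraries. The closest pair within Y-KO was replicates 1 and 2, and within Y-Scr replicates 2 and 3. Transcripts of Ptprc, which encodes CD45, were at 293, 298 and 134 CPM in Y-KO and at 521, 577 and 601 CPM in Y-Scr, so RNA of the antigen used for sorting was present in every library. The epithelial and urothelial markers were mixed: of 7 tested, the keratin genes Krt8, Krt14 and Krt18 rose, Epcam and Gata3 fell, and the median log2 fold change was -0.67. Their summed level, carried by keratins, was 3270 to 3460 CPM in Y-KO, against 2420 to 2750 CPM in Y-Scr, and the uroplakin genes Upk1b, Upk2 and Upk3a were too low to be tested.

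Of the 9 genes, 2 rose (Uhrf1 and Tdg), 1 fell (Dnmt3a) and 6 did not pass the test in Y-KO against Y-Scr (edgeR quasi-likelihood test, p under 0.05 after Benjamini-Hochberg adjustment). Over all 17837 genes tested, 16.1% passed, 7.82% higher and 8.27% lower. The groups did not overlap for 4 of the 9, the 3 called genes and Dnmt3b, where 37.7% of all genes were separated in this way. The median log2 fold change was -0.03 for the 9 genes and also -0.03 for all genes tested. No gene of the 9 was more than 2-fold higher, and Dnmt3b and Tet1 were the only ones more than 2-fold lower by the fitted value, neither of them called.

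**Figure D1:**
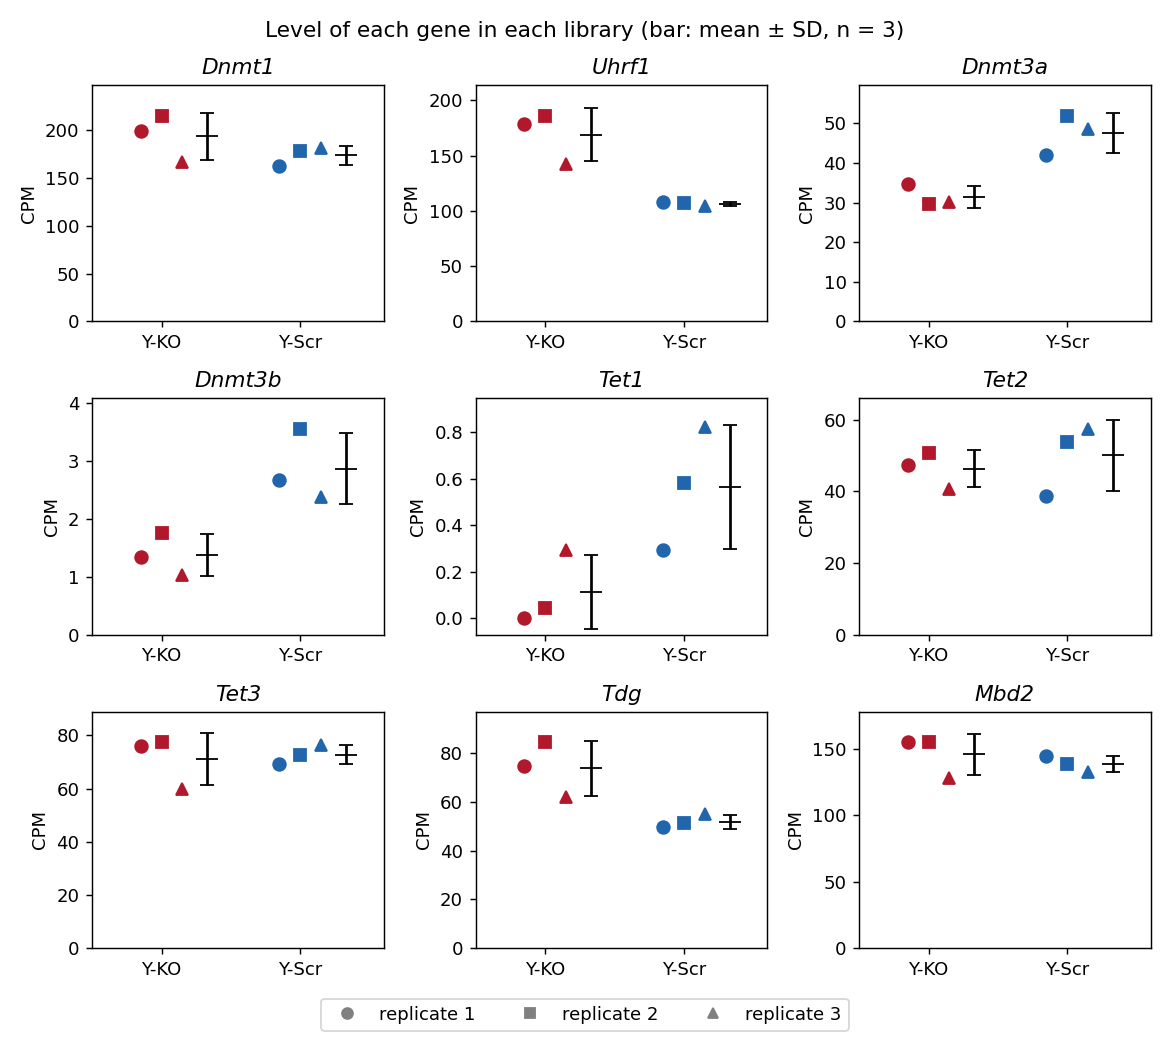
CPM of each of the 9 genes (vertical axis) in the 3 Y-KO and 3 Y-Scr libraries, with marker shape giving the replicate and a bar for the mean ± SD. Uhrf1 and Tdg lie higher in every Y-KO library, Dnmt3a and Dnmt3b lie lower in every one, and the other genes overlap.

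The promoters of the 3 called genes are shown because these genes passed the test. In addition, Uhrf1 is known as a target of E2F factors, which drive S phase genes. Sequences are the 250 bases before a RefSeq start in GRCm38.p6, on the gene's strand, while all other coordinates here are GRCm39. Capitals mark an E2F word, that is TTTCCCGC, TTTCGCGC, TTTGCCGC or TTTGGCGC on either strand, and the words found did not overlap.
Uhrf1, chr17:56304063-56304312, plus strand: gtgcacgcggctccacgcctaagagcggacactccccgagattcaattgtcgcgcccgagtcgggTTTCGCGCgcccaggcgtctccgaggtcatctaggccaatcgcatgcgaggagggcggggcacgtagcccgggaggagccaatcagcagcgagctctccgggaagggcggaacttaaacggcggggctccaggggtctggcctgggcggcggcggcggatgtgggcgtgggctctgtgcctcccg
Tdg, chr10:82629588-82629837, plus strand: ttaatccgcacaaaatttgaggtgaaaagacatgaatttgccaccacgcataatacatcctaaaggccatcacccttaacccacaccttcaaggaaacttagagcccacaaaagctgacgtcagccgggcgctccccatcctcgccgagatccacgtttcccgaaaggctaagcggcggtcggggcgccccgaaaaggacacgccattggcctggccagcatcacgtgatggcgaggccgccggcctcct
Dnmt3a, chr12:3806730-3806979, plus strand: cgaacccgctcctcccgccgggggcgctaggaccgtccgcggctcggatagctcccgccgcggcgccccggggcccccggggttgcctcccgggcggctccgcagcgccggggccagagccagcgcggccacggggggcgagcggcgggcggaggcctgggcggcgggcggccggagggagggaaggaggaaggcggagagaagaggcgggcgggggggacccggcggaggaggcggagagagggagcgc

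The Uhrf1 window shown held 30 CG dinucleotides and the word TTTCGCGC, starting 185 bases before the RefSeq start. A window at another Uhrf1 start held 10 CG dinucleotides and no word. The Tdg window held 19 and the Dnmt3a window shown 38 CG dinucleotides, against a median of 6 over all 32851 promoter windows, and neither held a word. The windows at the other Dnmt3a starts held 40 and 15 CG dinucleotides and no word. The table matched 8 of the 9 genes with 13 starts, since several genes have more than 1. A word stood in 2 of these 13 windows, the other one belonging to Dnmt1, against 1.86% of all windows. Among the S phase genes listed below, 5 of 16 with a window had a word, against 2.16% of all 27025 genes with a window. A match describes these letters and shows no binding, and gene counts do not tell which start was used.

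Of the maintenance pair, Uhrf1 rose and Dnmt1 did not pass the test. Uhrf1 (chromosome 17, 56610321 to 56630486, plus strand) was at 179, 186 and 142 CPM in Y-KO and at 108, 107 and 104 CPM in Y-Scr. Every Y-KO library stood above every Y-Scr library, with Y-KO replicate 3 the nearest to them. The mean was 169 ± 23.4 CPM in Y-KO, against 106 ± 2.19 CPM in Y-Scr (SD, n = 3 each), 1.59-fold higher in Y-KO (0.66 on the log2 scale, SE 0.11, edgeR adjusted p = 0.00542). With Y-KO replicates 1 and 2 summed to 1 sample and Y-Scr replicates 2 and 3 to another, the call was lost at a log2 fold change of 0.61 (edgeR adjusted p = 0.125, within a range of 2.66e-07 to 0.125 over 16 alternatives, 15 of which kept it).

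Dnmt1 (chromosome 9, 20818505 to 20871184, minus strand) was at 199, 215 and 167 CPM in Y-KO and at 162, 178 and 181 CPM in Y-Scr. The groups overlapped, with Y-KO replicate 3 inside the Y-Scr range. The log2 fold change was 0.16 (SE 0.11, edgeR adjusted p = 0.370). With Y-KO replicate 3 left out, so that Y-KO was its close pair alone, Dnmt1 was higher by 0.25 (edgeR adjusted p = 0.0103), while over the other alternatives the adjusted p ran up to 0.949.

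Uhrf1 and Dnmt1 therefore stood in a different ratio to each other, a comparison chosen after their values were seen and given without a test. Per exon length, Uhrf1 was 1.56, 1.5 and 1.48 times the level of Dnmt1 in Y-KO and 1.16, 1.04 and 0.997 times in Y-Scr. This ratio is taken within a library and does not depend on the scaling. Every Y-KO value lay above every Y-Scr value.

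Of 20 S phase genes, which serve DNA replication, 7 rose, none fell and 13 did not pass, with a median log2 fold change of 0.31. The licensing factor gene Cdt1 rose by 0.72 (SE 0.11, edgeR adjusted p = 0.00418) and the helicase subunit gene Mcm7 by 0.52 (SE 0.09, edgeR adjusted p = 0.00666). The summed level of the 20 genes was 2130, 2170 and 1790 CPM in Y-KO, against 1620, 1560 and 1600 CPM in Y-Scr. Instead of 7, the fits called 13 without Y-KO replicate 3, 4 without Y-Scr replicate 1, with the replicate block or with library size alone as the scaling, 2 on leaving out any other single library, and 0 with the close pairs summed. Of 12 genes of mitosis 4 rose and none fell, among them the kinase genes Aurkb (log2 fold change 0.49, SE 0.11) and Bub1 (0.58, SE 0.14). All 12 passed when Y-KO replicate 3 was left out, and 0 passed on leaving out any other library, with library size alone or with the close pairs summed.

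Set against the summed S phase genes of the same library, Uhrf1 was at 8.40, 8.54 and 7.95 CPM per 100 CPM in Y-KO and at 6.68, 6.88 and 6.51 in Y-Scr, still without overlap. Dnmt1 was at 9.36, 9.89 and 9.33 CPM per 100 CPM in Y-KO and at 10.0, 11.4 and 11.3 in Y-Scr. On this measure Dnmt1 was lower in Y-KO than in Y-Scr. Tdg was at 3.52, 3.89 and 3.46 in Y-KO and at 3.05, 3.29 and 3.45 in Y-Scr, with Y-KO replicate 3 and Y-Scr replicate 3 nearly equal. The part of S phase genes in the Uhrf1 difference was not tested beyond these ratios, which were chosen after the values were seen.

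**Figure D2:**
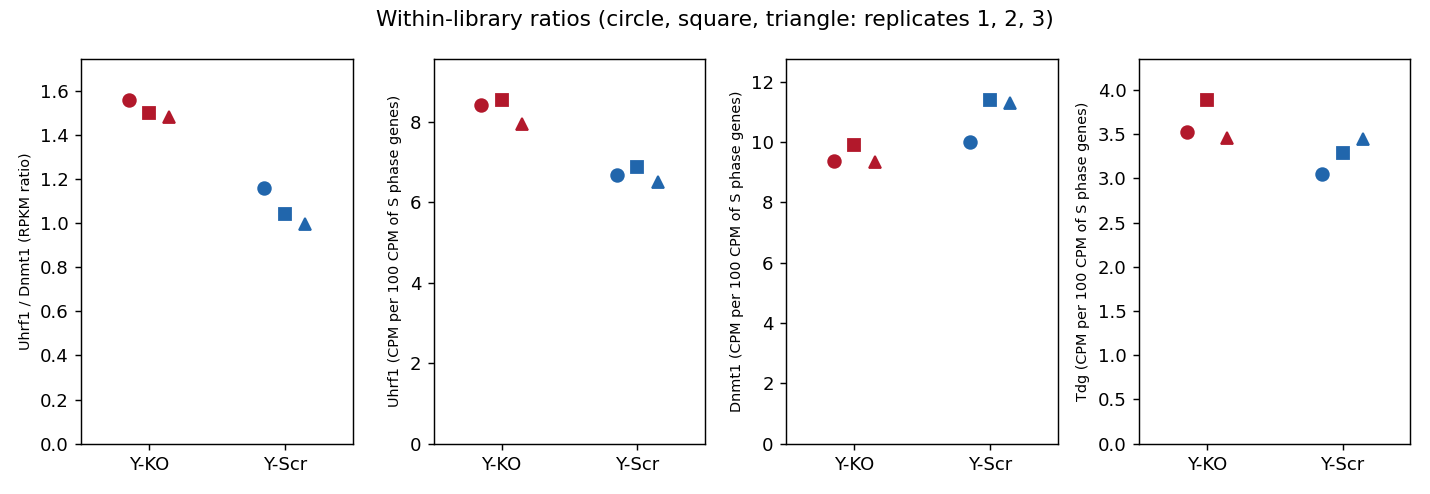
Within-library ratios in the 3 Y-KO and 3 Y-Scr libraries: Uhrf1 over Dnmt1 per exon length, and Uhrf1, Dnmt1 and Tdg as CPM per 100 CPM of the 20 S phase genes, each axis starting at 0. The first 2 ratios are higher in every Y-KO library, the Dnmt1 ratio is lower in every one, and the Tdg values of the groups nearly meet at 3.46 in Y-KO and 3.45 in Y-Scr.

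Of 7 partners of the maintenance pair, 1 rose, none fell and 6 did not pass (median log2 fold change 0.35). Leaving out Y-KO replicate 3 gave 6 that were higher, DESeq2 and the fit with no filter 4 each, and limma-voom and halved counts 2 each. The gene that rose was Cdca7, which brings the remodeller Hells to hemimethylated DNA, at 65.3, 65.3 and 60.0 CPM in Y-KO, against 49.6, 49.8 and 47.4 CPM in Y-Scr (log2 fold change 0.38, SE 0.09, edgeR adjusted p = 0.0205). Named after their values were seen, Hells itself had a value of 0.46 on the log2 scale (SE 0.15, edgeR adjusted p = 0.0773), the replication clamp gene Pcna 0.35 (SE 0.12, edgeR adjusted p = 0.0756) and the ligase gene Lig1 0.35 (SE 0.10, edgeR adjusted p = 0.0543). Uhrf2, the relative of Uhrf1, was at -0.09 (SE 0.10, edgeR adjusted p = 0.595). The Cdca7 call was lost with library size alone as the scaling, with the block, with the close pairs summed, and without Y-KO replicate 1, Y-KO replicate 2, Y-Scr replicate 2 or Y-Scr replicate 3, and its edgeR adjusted p ran up to 0.238 over the alternatives.

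Of the de novo methyltransferases, Dnmt3a fell and Dnmt3b was lower without passing the test. Dnmt3a (chromosome 12, 3856007 to 3964443, plus strand) was at 34.6, 29.7 and 30.1 CPM in Y-KO and at 42.1, 51.9 and 48.6 CPM in Y-Scr. All Y-KO libraries stood below all Y-Scr libraries, and Y-KO replicate 3 did not stand apart. The mean was 31.5 ± 2.74 CPM in Y-KO, against 47.5 ± 4.97 CPM in Y-Scr (SD, n = 3 each), 1.51-fold lower in Y-KO (log2 fold change -0.59, SE 0.12, edgeR adjusted p = 0.0110). This call was lost without Y-Scr replicate 2 (-0.51, edgeR adjusted p = 0.0735), without Y-Scr replicate 3 (-0.56, edgeR adjusted p = 0.0667) and with the close pairs summed (-0.56, edgeR adjusted p = 0.136), and held in 13 of 16 alternatives with adjusted p from 0.000275. Its antisense gene Dnmt3aos shares 133 exon bases with it and had at most 10 counts in any library.

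Dnmt3b (chromosome 2, 153491370 to 153529650, plus strand) was a gene of low level, with 65, 78 and 46 counts in Y-KO and 146, 158 and 127 counts in Y-Scr. In CPM this was 1.34, 1.76 and 1.04 in Y-KO and 2.67, 3.55 and 2.37 in Y-Scr, with no overlap. The log2 fold change was -1.05 (SE 0.33, edgeR adjusted p = 0.0626). DESeq2 (adjusted p = 0.0279) and library size alone as the scaling (edgeR adjusted p = 0.0388) placed it past the threshold, 2 of 16 alternatives, over which the adjusted p ran up to 0.257.

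Markers of several leukocyte types also differed between the groups. In bulk RNA, fewer cells of a type and less RNA per cell cannot be told apart. Of 10 pan-leukocyte markers 4 fell and none rose, and their summed level was 1310 to 2780 CPM in Y-KO, against 3550 to 3680 CPM in Y-Scr. This count of 4 was 0 with the close pairs summed, 1 on leaving out any single Y-Scr library, 8 on leaving out Y-KO replicate 3 or with no filter, and 7 with DESeq2. Of 12 T and NK cell markers 11 fell and none rose, and their summed level was 125 to 207 CPM in Y-KO, against 698 to 754 CPM in Y-Scr, with no marker of either list at 0 in any library. Y-KO replicate 3 had the lowest pan-leukocyte sum at 1310 CPM, while its Dnmt3a level of 30.1 CPM lay between those of Y-KO replicates 1 and 2, whose sums were 2720 and 2780 CPM. The ratios of Dnmt3a and Dnmt3b to marker sums, with a different list for each gene, were chosen after the values were seen. They are a description without a test. Per 100 CPM of pan-leukocyte markers, Dnmt3a was at 1.27, 1.07 and 2.30 CPM in Y-KO and at 1.14, 1.46 and 1.35 CPM in Y-Scr. Per 100 CPM of T and NK cell markers, Dnmt3b was at 0.659, 0.850 and 0.836 CPM in Y-KO and at 0.354, 0.498 and 0.340 CPM in Y-Scr, so the markers were lower in Y-KO by more than Dnmt3b was. Among other markers, 5 of 5 tested erythroid genes fell (summed level 0.931 to 1.07 CPM in Y-KO, 230 to 272 CPM in Y-Scr), as did 6 of 6 mast cell genes (7.13 to 9.16 CPM in Y-KO, 49.1 to 52.8 CPM in Y-Scr) and 5 of 6 B cell genes (26.9 to 32.4 CPM in Y-KO, 93.9 to 103 CPM in Y-Scr). Of the rest, 6 of 10 macrophage and monocyte genes rose (summed level 1320 to 2420 CPM in Y-KO, 1260 to 1420 CPM in Y-Scr), 6 of 8 neutrophil genes fell (419 to 770 CPM in Y-KO, 1540 to 1730 CPM in Y-Scr) and 3 of 10 fibroblast genes fell (174 to 621 CPM in Y-KO, 938 to 997 CPM in Y-Scr). With the close pairs summed the calls were 5 erythroid, 6 mast cell, 3 B cell, 8 T and NK cell, 1 macrophage and monocyte, 0 neutrophil and 1 fibroblast. Without Y-KO replicate 3, 10 macrophage and monocyte genes rose and 6 fibroblast genes fell. In that fit 1 pan-leukocyte, 1 T and NK cell and 1 neutrophil marker also rose. Without any single other library, 4 macrophage and monocyte genes rose. Without any single Y-Scr library, 1 or 2 neutrophil genes fell, and without Y-KO replicate 2, 4 did. Without Y-Scr replicate 1, 3 B cell genes fell. The part of these cells in either difference was not tested.

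Within the methyltransferase family, Dnmt1 made up most of the summed level per exon length. Its share was 92.0%, 93.2% and 91.8% in Y-KO and 87.8%, 86.3% and 87.8% in Y-Scr. The mean share was 92.3% ± 0.751 in Y-KO and 87.3% ± 0.859 in Y-Scr (SD, n = 3 each), higher in all Y-KO libraries, with an exact two-sided permutation p of 0.1, the smallest that 3 against 3 libraries allow. Of the summed level of Dnmt3a and Dnmt3b, Dnmt3a made up 87.5% ± 3.24 in Y-KO and 83.6% ± 2.34 in Y-Scr, with overlapping groups (exact two-sided permutation p = 0.2).

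Of 6 partners and relatives of the de novo enzymes, 5 could be tested and 1 rose, or 2 without Y-KO replicate 3. Trim28, a corepressor that guards methylation at imprinted loci with Zfp57, was at 385, 412 and 394 CPM in Y-KO, against 315, 308 and 307 CPM in Y-Scr (log2 fold change 0.36, SE 0.07, edgeR adjusted p = 0.0108). This call was lost with library size alone as the scaling, with the close pairs summed, and without Y-KO replicate 2, Y-Scr replicate 2 or Y-Scr replicate 3, with adjusted p up to 0.197 over the alternatives. Dnmt3c, a rodent methyltransferase gene of the male germline, was not tested at 0 counts in Y-KO, against 8 in Y-Scr, and is named with its values known. Dnmt3l, the inactive cofactor of germ cells, had a fitted log2 value of 0.70 (SE 0.57, edgeR adjusted p = 0.459).

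None of the Tet genes passed the test. Tet2 (chromosome 3, 133169440 to 133250900, minus strand) was at 47.5, 50.8 and 40.8 CPM in Y-KO and at 38.8, 53.9 and 57.4 CPM in Y-Scr, with Y-Scr replicate 1 the lowest of the 6 libraries (log2 fold change -0.11, SE 0.16, edgeR adjusted p = 0.692). Tet3 (chromosome 6, 83339355 to 83436066, minus strand) was at 76.2, 77.4 and 59.8 CPM in Y-KO and at 69.2, 72.5 and 76.5 CPM in Y-Scr, again with overlap (log2 fold change -0.03, SE 0.12, edgeR adjusted p = 0.885). Neither sign was settled, since leaving out Y-Scr replicate 3 gave 0.02 for both.

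Tet1 (chromosome 10, 62640349 to 62744775, minus strand) was close to absent. It had 0, 2 and 13 counts in Y-KO, against 16, 26 and 44 counts in Y-Scr, so almost all Y-KO counts came from replicate 3, which at 0.295 CPM reached the 0.292 CPM of Y-Scr replicate 1. The log2 fold change was -2.31 with an SE of 1.17 (edgeR adjusted p = 0.225). Without Y-KO replicate 3 it was -4.54 (edgeR adjusted p = 0.0190). In that fit Tet1 passed the filter on low counts through Y-Scr alone, so it had to be lower and the call supports nothing. Over the 14 alternatives that kept Tet1 the adjusted p ran up to 0.545.

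By level per exon length, Tet3 and Tet2 shared the family between them. Tet2 made up 38.1%, 39.4% and 40.1% of the summed Tet level in Y-KO and 35.6%, 42.2% and 42.3% in Y-Scr. The groups overlapped (exact two-sided permutation p = 0.8).

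Of 6 genes for partners of Tet proteins, 4 could be tested, of which 3 fell and none rose (median log2 fold change -0.44). The untested genes, Cxxc4 and Wt1, named with their values known, were too low for the test and went the other way. Cxxc4 had 16 counts over Y-KO and Wt1 had 26, against 0 for each over Y-Scr. Cxxc5, which encodes a CpG-binding protein related to the CXXC domain of Tet1, was at 1.24, 3.29 and 1.23 CPM in Y-KO and at 10.8, 9.40 and 9.91 CPM in Y-Scr. All Y-KO libraries were far below, 5.24-fold by the fitted value (log2 fold change -2.39, SE 0.38, edgeR adjusted p = 0.00458), and the call held in all 16 alternatives. Ogt, the X-linked O-GlcNAc transferase gene whose product binds Tet proteins, was at 129, 129 and 165 CPM in Y-KO and at 175, 226 and 226 CPM in Y-Scr (log2 fold change -0.57, SE 0.14, edgeR adjusted p = 0.0255). For Ogt the call was lost with the close pairs summed and without Y-KO replicate 1, Y-KO replicate 2, Y-Scr replicate 2 or Y-Scr replicate 3 (adjusted p up to 0.289). The corepressor gene Sin3a, named with its values known, fell by 0.32 (SE 0.09, edgeR adjusted p = 0.0441). Only Cxxc5 of the 4 passed on leaving out Y-KO replicate 1, Y-KO replicate 2, Y-Scr replicate 2 or Y-Scr replicate 3, or with the close pairs summed.

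**Figure D3:**
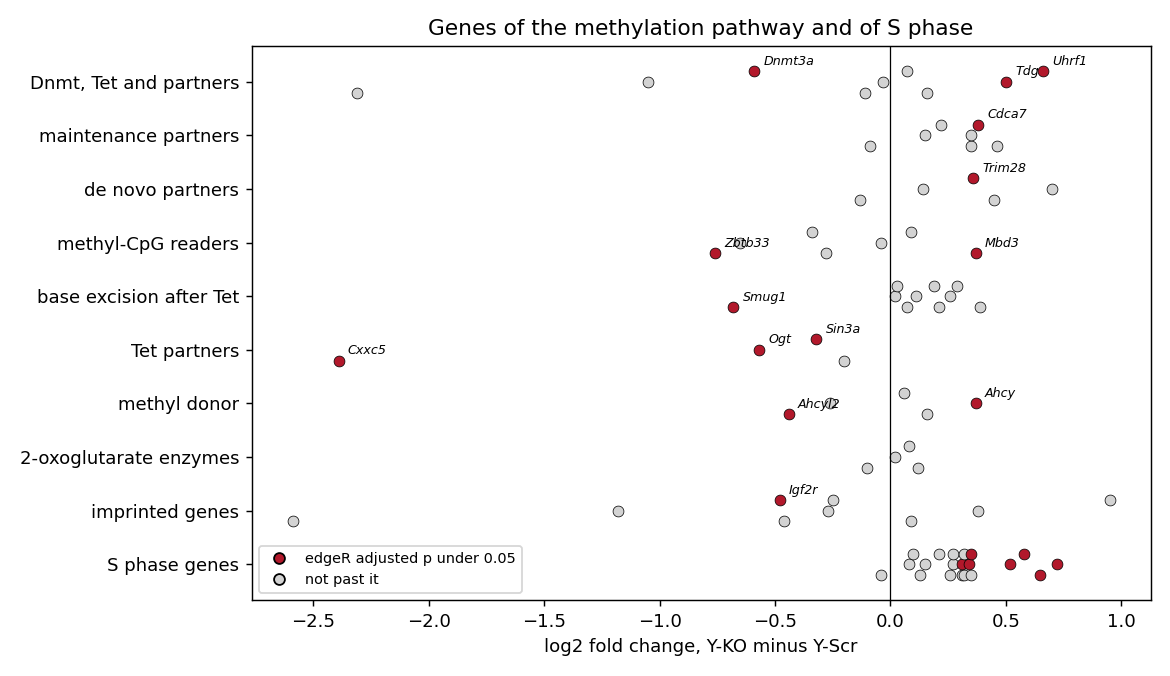
Log2 fold change of Y-KO minus Y-Scr (horizontal axis) for each tested gene of the methylation pathway lists, the imprinted genes and the S phase genes, red where the edgeR adjusted p was under 0.05. Neil2 is left out because all Y-KO libraries had 0 counts. Called S phase genes all lie right of 0 and called genes for Tet partners left of it, with Cxxc5 at -2.39.

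Tdg rose. Tdg (chromosome 10, 82465662 to 82486633, plus strand) was at 74.8, 84.4 and 61.9 CPM in Y-KO and at 49.5, 51.2 and 55.1 CPM in Y-Scr, with every Y-KO library above every Y-Scr library. The mean was 73.7 ± 11.3 CPM in Y-KO, against 51.9 ± 2.89 CPM in Y-Scr (SD, n = 3 each), 1.42-fold higher (log2 fold change 0.50, SE 0.12, edgeR adjusted p = 0.0263). This call was lost in 8 of 16 alternatives: with library size alone as the scaling (edgeR adjusted p = 0.0791), with the replicate block (0.0559), with the close pairs summed (0.222), and on leaving out each library in turn except Y-KO replicate 3 (0.0735 to 0.104). Its direction held in all 16. Tdg overlaps the opposite-strand gene Glt8d2 over 367 exon bases, 6.83% of its exon length, and resembles the pseudogene Tdg-ps, which had 12 to 38 counts a library. Reads that fit either of 2 genes, or several places, were by the counter's defaults not counted, so the Tdg level is somewhat uncertain.

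Of 11 genes of base excision after oxidation, 2 fell, none rose and 9 did not pass (median log2 fold change 0.11). Leaving out Y-KO replicate 3 added 3 that were higher, and no gene passed with the block, with the close pairs summed or without any 1 of the Y-Scr libraries. Smug1, a uracil glycosylase gene, was at 6.85, 9.30 and 9.69 CPM in Y-KO and at 13.7, 12.6 and 15.3 CPM in Y-Scr (log2 fold change -0.68, SE 0.18, edgeR adjusted p = 0.0336). Neil2, a glycosylase gene for oxidised bases, was at 0 counts throughout Y-KO and at 12, 22 and 34 counts in Y-Scr, 68 in all. It passed the filter on low counts only through Y-Scr, so it had to be lower in Y-KO, and its test and its place among those that fell support nothing. With a floor of 3 counts for the whole group, this came to 20.3-fold lower (edgeR adjusted p = 0.0198). That floor takes each count as independent. Small counts were mostly even, as read pairs counted singly would give, and to that extent the bound is too high. Smug1 was also not called without Y-KO replicate 1 or 2. Over the alternatives the adjusted p ran up to 0.172 for Smug1 and 0.117 for Neil2.

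Mbd2 (chromosome 18, 70701260 to 70759202, plus strand) did not pass the test. It was at 155, 155 and 128 CPM in Y-KO and at 145, 139 and 133 CPM in Y-Scr. Y-KO replicate 3 was the lowest of all 6 libraries and the other Y-KO libraries were the highest (log2 fold change 0.07, SE 0.10, edgeR adjusted p = 0.688). Scaled by library size alone, Mbd2 was at -0.07.

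Of 7 other genes for methyl-CpG readers and their relatives, 1 rose, 1 fell and 5 did not pass (median log2 fold change -0.28). The number lower was 4 without Y-KO replicate 3, 3 with DESeq2 or library size alone, and 2 with limma-voom, the block or no filter. The gene that rose, Mbd3, is counted here as a relative of Mbd2 and not as a reader. Mbd3 takes the place of Mbd2 in the same repressive complex. It was at 127, 127 and 116 CPM in Y-KO and at 107, 93.4 and 86.2 CPM in Y-Scr (log2 fold change 0.37, SE 0.10, edgeR adjusted p = 0.0395). Zbtb33, an X-linked gene for the zinc finger reader Kaiso, was at 13.8, 15.3 and 14 CPM in Y-KO and at 20.1, 24.6 and 28.4 CPM in Y-Scr (log2 fold change -0.76, SE 0.15, edgeR adjusted p = 0.0114). Both calls were lost with the close pairs summed and without Y-Scr replicate 2 or Y-Scr replicate 3. That of Mbd3 was also lost without Y-KO replicate 1 or 2, with the block, and with library size or upper quartile scaling (adjusted p up to 0.339 for Mbd3 and 0.137 for Zbtb33).

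Among 5 genes of the methyl donor cycle, Ahcy, which clears the inhibitory product of methylation, rose by 0.37 (SE 0.09, edgeR adjusted p = 0.0242), and Ahcyl2, a relative of Ahcy, fell by 0.44 (SE 0.11, edgeR adjusted p = 0.0268). Both were lost with the close pairs summed and without Y-KO replicate 1, Y-Scr replicate 2 or Y-Scr replicate 3, Ahcy also without Y-KO replicate 2, with the block and with library size alone (adjusted p up to 0.264 for Ahcy and 0.210 for Ahcyl2). DESeq2 and limma-voom each called 2 of the 5 lower. None of 4 genes for enzymes of 2-oxoglutarate, the cofactor of Tet proteins, passed edgeR, DESeq2 or limma-voom, and 0 had an unadjusted edgeR p under 0.05. Idh1 had a log2 fold change of 0.08 (SE 0.10) and Idh2 of 0.12 (SE 0.10).

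The order of the 9 genes by level per exon length was the same in both groups. RPKM is CPM divided by exon length in kilobases. Mbd2 led with 45.4 ± 4.72 RPKM in Y-KO and 43.3 ± 1.86 RPKM in Y-Scr (SD, n = 3 each). Uhrf1 followed with 39.6 ± 5.49 RPKM in Y-KO and 25.0 ± 0.514 RPKM in Y-Scr, then Dnmt1 with 26.2 ± 3.33 RPKM in Y-KO and 23.5 ± 1.34 RPKM in Y-Scr. In Y-KO the ranges of Mbd2 and Uhrf1 overlapped and Dnmt1 lay below both, while in Y-Scr the ranges of Uhrf1 and Dnmt1 overlapped and Mbd2 lay above both.

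Tdg came next at 13.7 ± 2.11 RPKM in Y-KO and 9.67 ± 0.538 RPKM in Y-Scr. Tet3 was at 4.26 ± 0.587 RPKM in Y-KO and 4.36 ± 0.218 RPKM in Y-Scr, and Tet2 at 2.75 ± 0.303 RPKM in Y-KO and 2.97 ± 0.585 RPKM in Y-Scr. Dnmt3a was at 1.89 ± 0.165 RPKM in Y-KO, below the Tet2 range there, and at 2.86 ± 0.299 RPKM in Y-Scr, where the ranges of Tet2 and Dnmt3a overlapped. Dnmt3b at 0.271 ± 0.0704 RPKM in Y-KO and 0.561 ± 0.119 RPKM in Y-Scr was the second lowest. Tet1 closed the order at 0.00734 ± 0.0103 RPKM in Y-KO and 0.0366 ± 0.0172 RPKM in Y-Scr. Exon length is that of all annotated exons merged, so genes with long rarely used exons come out too low.

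**Figure D4:**
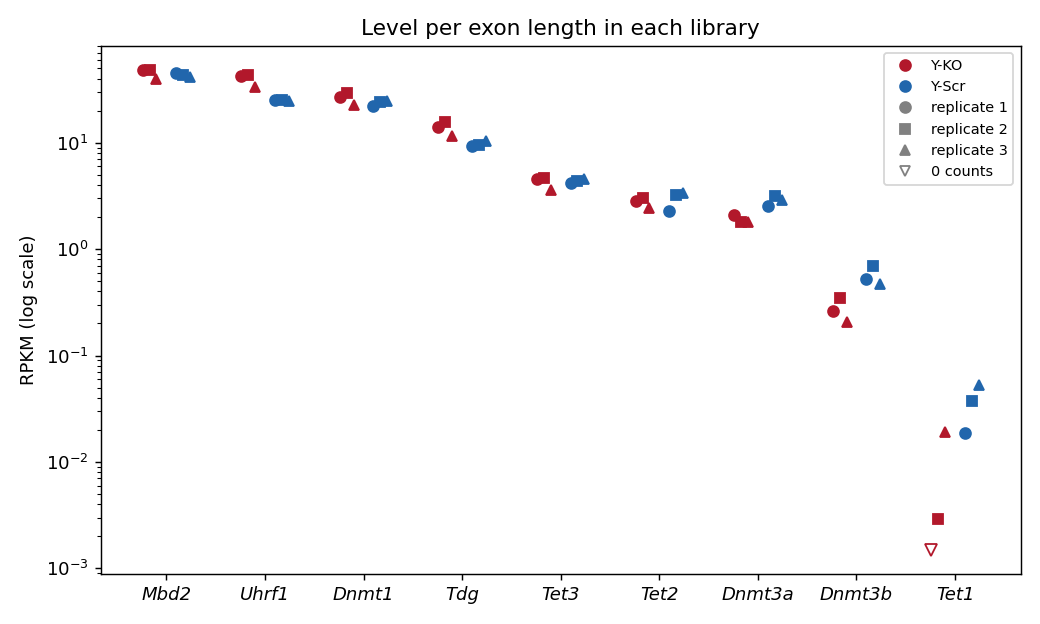
RPKM of the 9 genes (log axis) in each Y-KO and Y-Scr library, ordered by the Y-Scr mean, with an open triangle at the foot for the library with 0 counts. Levels span from 48.2 RPKM for Mbd2 to 0.00292 RPKM for Tet1 among libraries with counts.

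The 9 genes also differed in how much their libraries spread. Within Y-KO the coefficient of variation of CPM ran from 8.70% for Dnmt3a to 26.0% for Dnmt3b, leaving out Tet1 at 140.0%. Within Y-Scr it ran from 2.06% for Uhrf1 to 21.3% for Dnmt3b, leaving out Tet1 at 46.9%. Y-KO replicate 3 had the lowest Y-KO value for 7 of the 9 genes, the exceptions being Dnmt3a and Tet1. Y-Scr replicate 1 had the lowest Y-Scr value for 6 of them.

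**Figure D5:**
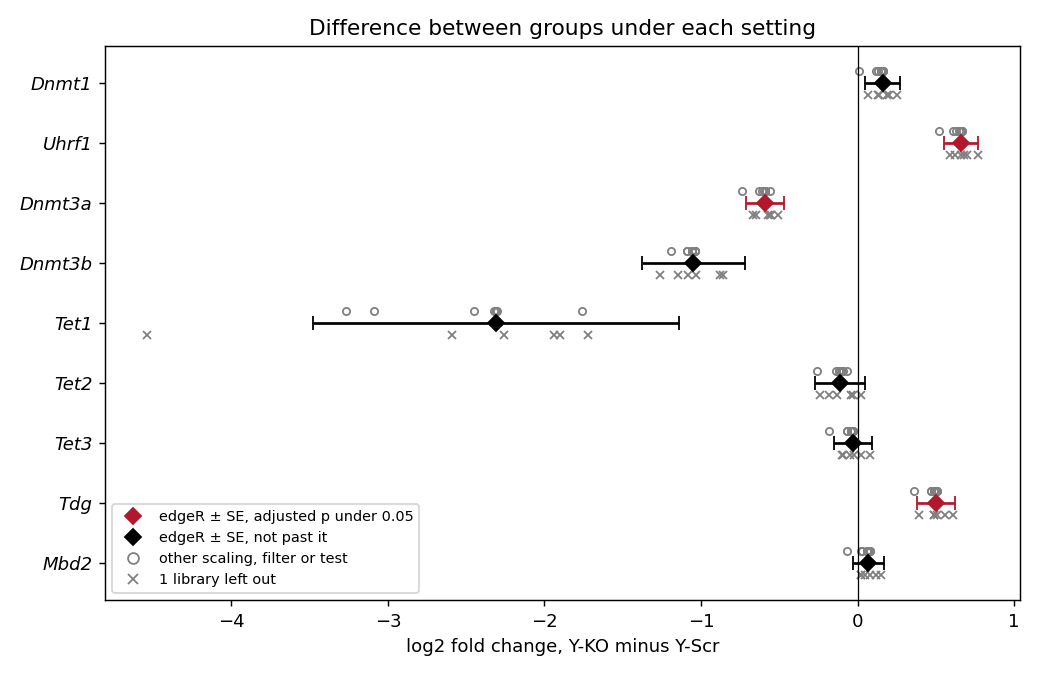
Log2 fold change of Y-KO minus Y-Scr (horizontal axis) for the 9 genes, with diamonds for the edgeR value ± SE, open circles for other scalings, filters and tests, and crosses for fits without 1 library. Uhrf1 and Tdg stay right of 0 and Dnmt3a and Dnmt3b left of it in every fit, while Tet1 spreads from -4.54 to -1.72.

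The genes nearest to each of the 9 in pattern were found by the root mean square difference of their centred log2 CPM over the 6 libraries, among 10467 genes. Nearest to Uhrf1 were the amino acid transporter gene Slc1a5 (0.0374), the ribosome biogenesis gene Pdcd11 (0.0389) and the glycyl-tRNA synthetase gene Gars (0.0415), against a spread of Uhrf1 itself of 0.349. Nearest to Tdg, whose own spread was 0.283, were the nucleolar gene Nol10 (0.0195), Nptxr (0.0307) and Ehd4 (0.0365). Nearest to Dnmt3a, with a spread of 0.317, were Gpbp1l1 (0.0401), Rfx3 (0.0675) and Inpp1 (0.0694).

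Nearest to Dnmt3b were Slamf6 (0.125), a receptor gene of lymphocytes, Mirt1 (0.136) and Siglech (0.139), a receptor gene of plasmacytoid dendritic cells, against a spread of 0.586. Nearest to Dnmt1, with a spread of 0.141, were the cytokinesis gene Kif23 (0.0156) and Dhx9 (0.0216). Tet2 had Secisbp2l (0.0397), Baz1a (0.0445) and Rsbn1 (0.0553) nearest, at a spread of 0.204. Tet3 had Cd44 (0.0217), Atp6v0a2 (0.0234) and Senp3 (0.0257), at a spread of 0.129. Mbd2 had the cytokinesis gene Racgap1 (0.0197), Srrt (0.0221) and Polr3d (0.0235), at a spread of 0.102. Tet1 had no near neighbour, with Pi15 (0.562), Tspan8 (0.569) and C1qtnf1 (0.581) at a spread of 1.55. With 6 libraries in 2 groups, many genes share a pattern, and these distances are a description.

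DNA methylation itself was not measured, and genes known to be kept silent by it are given as levels only. Of 14 germ cell genes with methylated promoters in somatic cells, 3 could be tested and none passed edgeR or limma-voom after adjustment, although 1 had an unadjusted edgeR p under 0.05. The germ cell helicase gene Ddx4 was at 2.66, 3.70 and 0.908 CPM in Y-KO and at 1.06, 0.898 and 0.393 CPM in Y-Scr, with overlap (log2 fold change 1.63, SE 0.58, edgeR adjusted p = 0.0936). Tex101, a germ cell surface protein gene, was at 0.825, 2.03 and 0 CPM in Y-KO and at 0.366, 0 and 0 CPM in Y-Scr (log2 fold change 2.91, SE 1.72, edgeR adjusted p = 0.299). Mael, a gene of transposon silencing in germ cells named with its values known, had 32, 16 and 0 counts in Y-KO and 0 in every Y-Scr library. Its counts came from the close Y-KO pair alone, with Y-KO replicate 3 at 0 like Y-Scr, and it was too low for the test. The genes Dazl, Sycp1, Asz1 and Stk31 had 0 counts in every library. Without Y-KO replicate 3, and so with only the close pair in Y-KO, 3 of these genes were called higher, while DESeq2 called 1 and edgeR with no filter 2. In the fit without Y-KO replicate 3, Mael and Tex101 could pass the filter only through the Y-KO pair, where they were high. A call of either gene there supports nothing.

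Of 18 imprinted genes, which are expressed from a single parental copy, 9 could be tested, 1 fell and none rose. DESeq2 and the fit with no filter called 3 lower, limma-voom and the block 2, and without Y-KO replicate 3 there were 2 lower and 1 higher. Igf2r, the gene of a receptor that clears Igf2, was at 43.1, 46.5 and 49.4 CPM in Y-KO and at 58.9, 62.9 and 72.6 CPM in Y-Scr (log2 fold change -0.48, SE 0.11, edgeR adjusted p = 0.0189). This call was lost with the close pairs summed and without Y-KO replicate 1, Y-KO replicate 2, Y-Scr replicate 2 or Y-Scr replicate 3 (adjusted p up to 0.197). Airn, its antisense RNA, named with its values known, was at 3.24, 2.23 and 7.51 CPM in Y-KO and at 8.79, 9.69 and 10.9 CPM in Y-Scr (log2 fold change -1.18, SE 0.40, edgeR adjusted p = 0.0797). Strand was not used in counting, so reads of Igf2r and Airn where they overlap cannot be told apart.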

How the data were processed

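The authors deposited 1 table of unnormalised counts by gene and library, made per the file headers with featureCounts 1.5.3 and the Ensembl 112 annotation of GRCm39 with no other option, so by its defaults strand was not used, single reads were counted, and multi-mapping or ambiguous reads were left out. Among counts from 2 to 20, 80.3% to 82.3% per library were even, as read pairs counted singly would give. The submitters' processing notes also name STAR 2.5.2b and Trimmomatic 0.39. The merged exon length is the deposited Length column.

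Symbols came from a GENCODE M21 table, matched by gene ID for 51880 IDs (90.7%). Of 211 listed symbols, 209 matched, the other 2 being older names of listed genes. The test was that of edgeR 4.0.16 (R 4.3.3). Its filterByExpr (minimum count 10, minimum total 15) left 17837 genes, TMM scaled them, and the quasi-likelihood fit held group alone. The SE is the log2 fold change divided by the root of F. Log2 CPM used a prior count of 2. Genes were named by list (up to 2 per direction with the smallest p), and by nearest pattern among genes of at least 5 CPM with a common symbol, of which 1 is not reported here. Members and lists were chosen with earlier results of these data known. The 16 alternatives were scalings, filters, DESeq2 1.42.0, limma-voom (limma 3.58.1), halved counts, the replicate block, summed close pairs and leaving out each library. The steps were tested on simulated data. Floors cover counting error only and take each count as independent. Promoter sequences are RefSeq's, build GRCm38.p6. Plots used matplotlib 3.10.9.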

Additional observations from a re-analysis of the deposited data

How the results depend on the processing

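The direction of Dnmt1, Dnmt3a, Dnmt3b, Uhrf1 and Tdg held in all 16 alternatives. Tet1 was lower in the 14 that kept it. This is no support, because Tet1 passed the filter largely through Y-Scr, where it was high, and without Y-KO replicate 3 through Y-Scr alone. Over all genes 2871 were called, 1395 higher and 1476 lower. With the close pairs summed these counts were 496, 136 and 360, and none of the 9 genes was called, higher or lower (0). With library size alone, which moved the median over all genes to -0.17 (log2) where TMM gave -0.03, 730 genes were higher and 2255 lower, and of the 9 genes 1 was higher and 2 were lower. DESeq2 called 2 of the 9 lower. Leaving out 1 library gave 1037 to 6393 calls, 461 to 3029 higher and 560 to 3364 lower, and 1 to 5 of the 9 genes, 1 to 3 higher and 0 to 2 lower. The extremes 6393 and 5 came without Y-KO replicate 3. That 5 counts Tet1, which passed the filter there through Y-Scr alone and so had to be lower. The sign turned for Mbd2 with library size alone (-0.07), for Tet2 and Tet3 without Y-Scr replicate 3 (both 0.02) and for Tet3 without Y-KO replicate 3 (0.08). Over the leave-outs, Tet2 ran from -0.24 to 0.02 and Tet3 from -0.10 to 0.08. The Tet2 share difference of -0.813 percentage points ran from -3.03 to 0.344. The cause of these changes was not tested.

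Same-numbered libraries did not deviate together (r = -0.01, 0.00 and -0.01 across genes), so no pairing by number was seen in expression. A pairing that leaves no such trace cannot be told from these values. The replicate block gave 2066 calls, 946 higher and 1120 lower, and called 2 of the 9 genes, 1 higher and 1 lower. Tet1 and Dnmt3b had the lowest levels of the 9 genes, so their values rest on the fewest counts.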
